A study of Homo sapiens with 23 samples.

Results

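The genes described here were silent in libraries labelled as LAPC4 prostate cancer cells with a vector and on in libraries labelled as LAPC4 with overexpressed ONECUT2 (OC2). Levels are given as CPM, the count of a gene divided by the total of its library and scaled to 1000000 counts. A gene was taken when it was under 0.5 CPM in each of 3 vector libraries and at 5 CPM or more in each of 3 OC2 libraries, which 210 of 58219 rows of the LAPC4 table met. A further 44 of these were left out because their mean CPM plus 0.5 was also 2 or more times higher with OC2 in the LNCaP line, and 166 genes remained. The genes were thus chosen by their LAPC4 and LNCaP overexpression values, which are given below as a description and carry no test.

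The study held 23 libraries of 2 androgen-sensitive human prostate cancer lines in 9 groups. LAPC4 was grown in IMDM with serum and 1 nM of the synthetic androgen R1881, as 3 vector and 3 OC2-overexpressing libraries. LNCaP was grown in RPMI with serum, as 2 control and 2 OC2-overexpressing libraries, 2 libraries with a control hairpin (shCon) and 2 with a hairpin against OC2 (shOC2), and 3 libraries each after 7 days of vehicle, of 10 µM enzalutamide, an antiandrogen drug, or of 10 µM enzalutamide with 10 µM of an OC2 inhibitor. The labels do not say whether an overexpressing or hairpin line was a clone or a pool, nor whether replicates came from separate cultures, so p-values measure only the spread between these libraries.

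OC2 is a transcription factor with a CUT domain and a homeodomain, known from liver, pancreas and nervous system development and studied in prostate cancer as a factor linked to loss of the luminal, androgen-driven state. Prostate luminal cells normally express few of the matrix enzymes, cytokines and adhesion molecules of basal, mesenchymal or inflamed tissue.

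ONECUT2 itself stood at 13.6, 17.2 and 15.6 CPM in the LAPC4 vector libraries and at 963, 814 and 913 CPM in the OC2 libraries. In LNCaP it was at 23.4 and 29.6 CPM in control and 313 and 288 CPM with overexpression, and at 21.9 and 22.6 CPM with shCon and 12.5 and 12.6 CPM with shOC2. In the drug arms its mean was 14.4 CPM with vehicle, 29.9 CPM with enzalutamide and 13.8 CPM with the combination. With the hairpin ONECUT2 fell by 0.77 on the log2 scale (SE 0.09, edgeR adjusted p = 4.84e-05), while the combination did not pass the test against vehicle (log2 fold change -0.15, SE 0.15, edgeR adjusted p = 0.440). Library totals ran from 20964025 to 30465978 counts, so 3 counts, the floor used below for a gene at 0, equal 0.0985 to 0.143 CPM.

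The move from silent to on went one way in LAPC4. No gene stood at 5 CPM or more in all 3 vector libraries and under 0.5 CPM in all 3 OC2 libraries, among 10489 genes that met the first condition. Of those 10489 genes, 3 had an OC2 mean of 0.1 or less of the vector mean, whereas 393 of 10985 genes at 5 CPM or more in all OC2 libraries had a vector mean of 0.1 or less of the OC2 mean. In LNCaP, by the same thresholds, 188 genes went from silent to on with OC2 and 18 the other way. Some broadly expressed genes, HEXA and ZDHHC4 among them, had no count in any vector library. Whether the vector and OC2 libraries come from the same stock of the line was not tested, and in the LAPC4 values a difference between stocks and the effect of OC2 cannot be told apart. Cell type markers moved beside the 166 genes in LAPC4. The summed level of 16 luminal prostate markers was 4629 to 4793 CPM in vector and 3379 to 3504 CPM with OC2, and 12 of the 16 were lower in every OC2 library than in any vector library, among them KLK3, prostate-specific antigen, at 186 and 30.01 CPM, while 3 were higher in every OC2 library. The sum of 12 basal epithelial markers was 495 to 614 CPM in vector and 1748 to 1784 CPM with OC2. Of the 12, 8 were higher in every OC2 library than in any vector library and 1 was lower, and the adhesion receptor CD44 was at 0.825 and 373 CPM. The basal markers TP63, DSG3 and DSC3 stayed at or under 0.617 CPM in every LAPC4 library. Summed fibroblast markers were 4.01 to 6.75 CPM in vector and 18.7 to 21.5 CPM with OC2 (the list holds COL1A2, which is also in the set), endothelial markers 4.75 to 7.14 and 6.14 to 7.32 CPM, blood cell markers 0.505 to 1.15 and 0.857 to 1.15 CPM, and neuroendocrine markers 9.63 to 12.2 and 37.5 to 40.9 CPM. The share of all genes that separated the vector and OC2 libraries was not computed, so the counts of luminal and basal markers are description only. The part of these shifts in the results was not tested. In bulk libraries, a moderate level in every cell and a high level in a fraction of the cells cannot be told apart.

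Of the 166 genes, 148 were protein coding, 11 were lincRNAs and the other 7 were processed transcripts, antisense RNAs or pseudogenes. In the vector libraries, 20 genes had no count at all, 33 had 1 to 3 counts in all and 113 had more. With OC2 their mean level ran from 5.17 to 653 CPM with a median of 14.7 CPM, and 59 genes reached 20 CPM, 20 genes 50 CPM and 8 genes 100 CPM. The 10 genes with most reads held 39.3% of the summed level. The 3 OC2 libraries were close to each other, with a median coefficient of variation per gene of 5.70% (0.611% to 21.6%). For the 113 genes with more than 3 vector counts, the ratio of means ran from 18.0 to 2555 with a median of 117. The summed level of all 166 was 18.5 to 21.02 CPM in vector and 4841 to 5004 CPM with OC2.

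**Figure D1:**
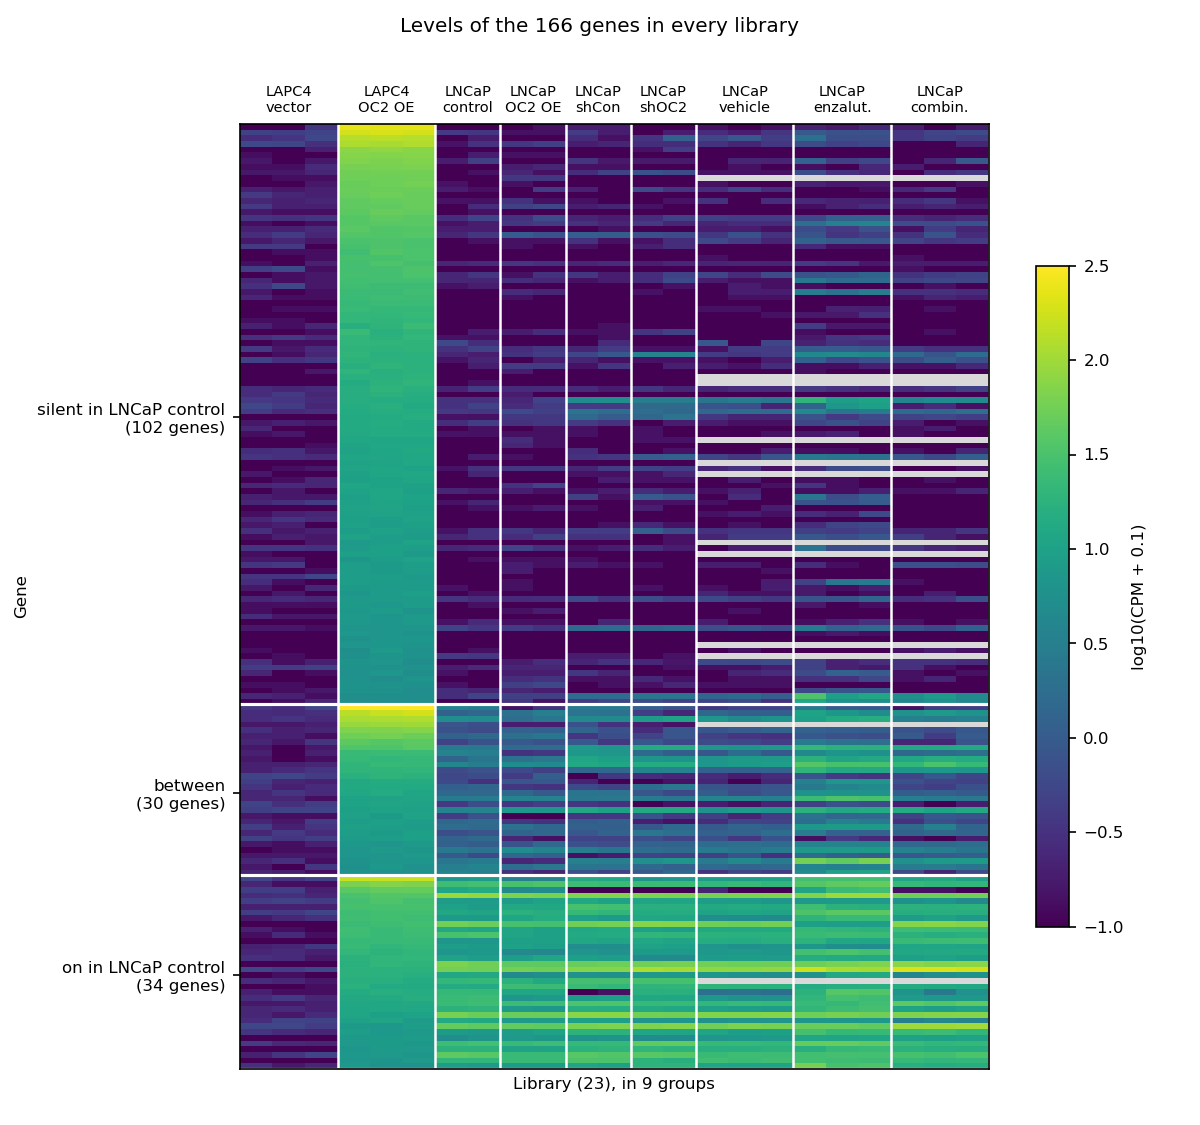
Heat map of all 166 genes (rows, ordered by LAPC4 level within 3 classes of LNCaP control level) in 23 libraries (columns, 9 groups); color is log10(CPM + 0.1), and grey marks genes not in the drug table. The LAPC4 OC2 columns are bright in every row by the choice of genes, while in LNCaP the 102 genes of the top class are mostly dark in every group and the 34 genes of the bottom class are on in most groups.

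Genes near the thresholds show how sharp the choice was. The matrix protease gene MMP14 and the pregnancy glycoprotein gene PSG4 were the closest to the silent limit, with a highest vector level of 0.490 and 0.484 CPM, while TTC28 at 0.519 CPM and the kinase gene NUAK2 at 0.525 CPM fell just outside. IFI16, a DNA sensor, and UGT2B7, a glucuronosyltransferase, had a lowest OC2 level of 5.11 CPM, and the transcription factor gene FOXF2 at 4.94 CPM and the chemokine gene CXCL8 at 4.92 CPM missed the limit. On the LNCaP ratio, FHL2 at 1.87 and DNAJC18 at 1.81 were kept, and ME1, malic enzyme, at 2.00 and SYDE1 at 2.02 were left out.

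Among secreted ligands, 3 of 11 EGF-like ligands belonged to the set. EREG, which encodes epiregulin, an activator of the EGF receptor, was at 0.0700, 0.0346 and 0.0337 CPM in vector and at 41.9, 48.9 and 45.6 CPM with OC2, a ratio of 987. NRG1, a neuregulin that binds ERBB3 and ERBB4, had no count in any vector library and stood at 20.9, 20.4 and 22.3 CPM with OC2, at least 205-fold higher against a floor of 3 counts per library. NRG2, a related neuregulin, had a mean of 0.174 CPM in vector and 8.74 ± 0.770 CPM (SD, n = 3) with OC2. Of the other 8 ligands, 3 were at 0.5 CPM or more in every vector library, among them HBEGF, heparin-binding EGF-like growth factor, at means of 2.30 and 27.9 CPM, and 5 were under 5 CPM in every library.

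Of 28 cytokines and chemokines, 4 belonged to the set. LIF, an interleukin-6 family cytokine, was at 0.175, 0.242 and 0.168 CPM in vector and 114, 118 and 122 CPM with OC2. CXCL1, a neutrophil-attracting chemokine, was at 0.280, 0.138 and 0.101 CPM in vector and 48.8, 52.6 and 48.2 CPM with OC2. Its relatives CXCL2 and CXCL3 reached 9.46 ± 0.417 and 7.78 ± 0.464 CPM (SD, n = 3) from means of 0.0579 and 0.0344 CPM. These 3 genes are near copies, so the split of reads among them depends on the counting. In every LNCaP library CXCL1 was at 0. LTBP2, a latent TGF-beta binding protein of elastic matrix and the one entry among 25 TGF-beta family genes, stood at 0.455, 0.242 and 0.370 CPM in vector and at 161, 154 and 159 CPM with OC2.

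The promoters of the 3 chemokine genes are printed because they hold both a run that OC2-type factors are known to bind and a kappa-B-type run. Sequences are from RefSeq (GRCh38.p14), 250 bases up to the start site, 5′ to 3′ on the strand of the gene: CXCL1 at chr4:73869143-73869392 (plus strand), CXCL2 at chr4:74099196-74099445 (minus strand) and CXCL3 at chr4:74038690-74038939 (minus strand). Capitals mark ATCGAT and GGGAATTTCC, which do not overlap.
CXCL1: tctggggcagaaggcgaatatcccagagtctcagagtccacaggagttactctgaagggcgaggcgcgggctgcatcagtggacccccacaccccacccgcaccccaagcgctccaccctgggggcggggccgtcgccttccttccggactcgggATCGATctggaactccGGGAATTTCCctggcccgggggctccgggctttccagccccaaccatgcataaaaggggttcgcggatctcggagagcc
CXCL2: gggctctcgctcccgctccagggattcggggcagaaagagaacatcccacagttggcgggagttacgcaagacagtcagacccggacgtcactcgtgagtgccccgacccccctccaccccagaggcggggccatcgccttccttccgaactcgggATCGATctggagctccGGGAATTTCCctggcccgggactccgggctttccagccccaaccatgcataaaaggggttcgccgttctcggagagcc
CXCL3: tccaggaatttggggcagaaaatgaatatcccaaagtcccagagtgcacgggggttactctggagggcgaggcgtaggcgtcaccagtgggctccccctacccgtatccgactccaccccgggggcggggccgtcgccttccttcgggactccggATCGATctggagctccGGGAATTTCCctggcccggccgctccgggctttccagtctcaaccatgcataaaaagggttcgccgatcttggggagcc
ATCGAT begins 95, 94 and 95 bases before the start in CXCL1, CXCL2 and CXCL3, and GGGAATTTCC begins 79, 78 and 79 bases before it, so the spacing is shared. The genes arose by duplication, and the aligned promoters were identical at 81.4% of positions for CXCL1 and CXCL3, 70.1% for CXCL1 and CXCL2 and 73.4% for CXCL2 and CXCL3, so they are not independent matches. RefSeq windows from 250 bases before to 50 bases after the start were matched for 114 of the 166 genes (192 windows). ATCGAT, which reads the same on both strands, was in 6 of them (3.13%) beside 0.763% of all 35116 windows. Those 6 genes were the chemokine genes, CASP2, MIR137HG and RFTN1, the last pair named after the match was seen. The NF-kappa-B motif was in 2.08% of the windows of the set beside 0.558% of all windows, in the 3 chemokine genes and PRR5L, also named after the match was seen. The other runs searched, on both strands, were ATTGAT or ATCAAT, in 6.25% of the windows beside 6.26% of all, the AP-1 run TGANTCA, in 8.33% beside 7.71%, and the TEAD run GGAATG or CATTCC, in 14.1% beside 14.0%. Counted by gene, with a gene taken when any of its windows matched, ATCGAT was in 5.26% of the 114 genes beside 0.938% of all 27305 genes and ATTGAT or ATCAAT in 9.65% beside 7.64%. By gene the AP-1 run was in 11.4% beside 9.37% and the TEAD run in 21.9% beside 16.7%. A match describes letters in a window and shows no binding.

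Surface receptors and adhesion molecules included the genes with most reads after TGM2. AXL, a receptor tyrosine kinase that binds GAS6, was at 0, 0 and 0.269 CPM in vector and 235, 224 and 229 CPM with OC2, a ratio of 2555. ROR2, a kinase-like receptor for WNT5A, was low in LAPC4 at 5.28, 5.11 and 5.11 CPM with OC2 and is taken up again with the drug arms. These were 2 of 29 receptor tyrosine kinases, of which 21 were at 0.5 CPM or more in every vector library. Among 20 cytokine and death receptors, IL4R, the interleukin-4 receptor chain, reached 21.4 ± 0.483 CPM (SD, n = 3) from 3 counts in all, and CD40, a TNF receptor family member, reached 19.5 ± 1.51 CPM from a mean of 0.218 CPM. NT5E, the ectonucleotidase CD73 that makes adenosine, was at 0.385, 0.346 and 0.404 CPM in vector and 183, 196 and 183 CPM with OC2. CDH4, R-cadherin, reached 28.04 ± 0.894 CPM (SD, n = 3) from 0.0806 CPM. These were the 2 entries among 28 cadherins and other adhesion molecules. ITGB3, an integrin chain and the one entry of 23 integrins, reached 5.90 CPM, but 51.6% of its exon bases overlap a second gene on the same strand, so its count is uncertain.

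Of 38 collagens and matrix proteins 4 belonged to the set, and of 32 proteases and protease inhibitors 6 did. TGM2, transglutaminase 2, which cross-links matrix proteins, was at 0.280, 0.208 and 0.471 CPM in vector and at 675, 619 and 665 CPM with OC2, the most reads in the set and also the highest level per kilobase of exon (81.3 CPM per kilobase, ahead of AXL at 44.5 and NT5E at 41.3). The collagen genes COL4A1, COL13A1 and COL1A2 were much lower, with COL4A1 at 25.4 ± 0.786 CPM (SD, n = 3). MMP14, a membrane-bound metalloprotease, was at 0.490, 0.450 and 0.202 CPM in vector and 117, 112 and 122 CPM with OC2. The secreted stromelysin MMP3 went from 3 counts in all to 76.7, 84.3 and 76.1 CPM, a ratio of 2295 with an exact 95% Clopper-Pearson interval of 785 to 11132. Its neighbour MMP1, interstitial collagenase, went from a mean of 0.186 CPM to 31.4 ± 1.33 CPM. ADAM12, a membrane metalloprotease, stood at 9.25 ± 0.494 CPM, and the protease inhibitors SERPINB7 and SERPINB2 at 10.3 ± 0.991 and 7.24 ± 0.425 CPM (SD, n = 3). SERPINB2 is named for its position beside SERPINB7, and 19.9% of its exon bases overlap SERPINB10 on the same strand.

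Inside the cell, CAV1 and CAV2, the coat proteins of caveolae, reached 46.1 ± 2.30 and 14.0 ± 0.697 CPM (SD, n = 3) from means of 0.162 and 0.0804 CPM, and FHL2, a LIM-domain cofactor, reached 36.5 CPM. The transcription factors BNC1, FOXL1, FOXC2 and ZEB1 were 4 of 36 on a list of mesenchymal and squamous regulators. BNC1, a zinc finger factor of basal keratinocytes, had no count in vector and stood at 22.2, 24.2 and 24.1 CPM with OC2, at least 228-fold higher. ZEB1, a repressor of epithelial genes, was at 0.175, 0.138 and 0.168 CPM in vector and 15.3, 18.5 and 16.3 CPM with OC2. No gene of the lists of 23 AP-1 and ETS factors, 46 homeobox genes, 28 keratins and desmosomal genes, 30 G protein-coupled receptors and channels or 32 cancer-testis antigens belonged to the set. Of those lists, 1 AP-1 or ETS factor and 2 homeobox genes met the LAPC4 condition but were left out on the LNCaP ratio. The lists are not complete: outside them the set held further receptors, channel subunits and a keratin, such as GPR176, GPR39, KCND1, CACNG7 and KRT12, most of them named after their values were seen. Of 44 MHC class I and interferon-stimulated genes, 5 did: IFI35 at 19.6 CPM, and IFI6, PSMB8, IFI16 and GBP3 between 5.37 and 6.51 CPM with OC2. The lists held 39 of the 166 genes, and 127 were in none. Of those, the genes with most reads were SYNE1, a nuclear envelope spectrin-repeat protein, at 162 CPM and NRIP3 at 132 CPM. LY6K, a GPI-linked surface protein, reached 51.5 CPM, but 71.0% of its exon bases overlap a gene on the other strand, and whether the counting used strand is not given in the sources used here.

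**Figure D2:**
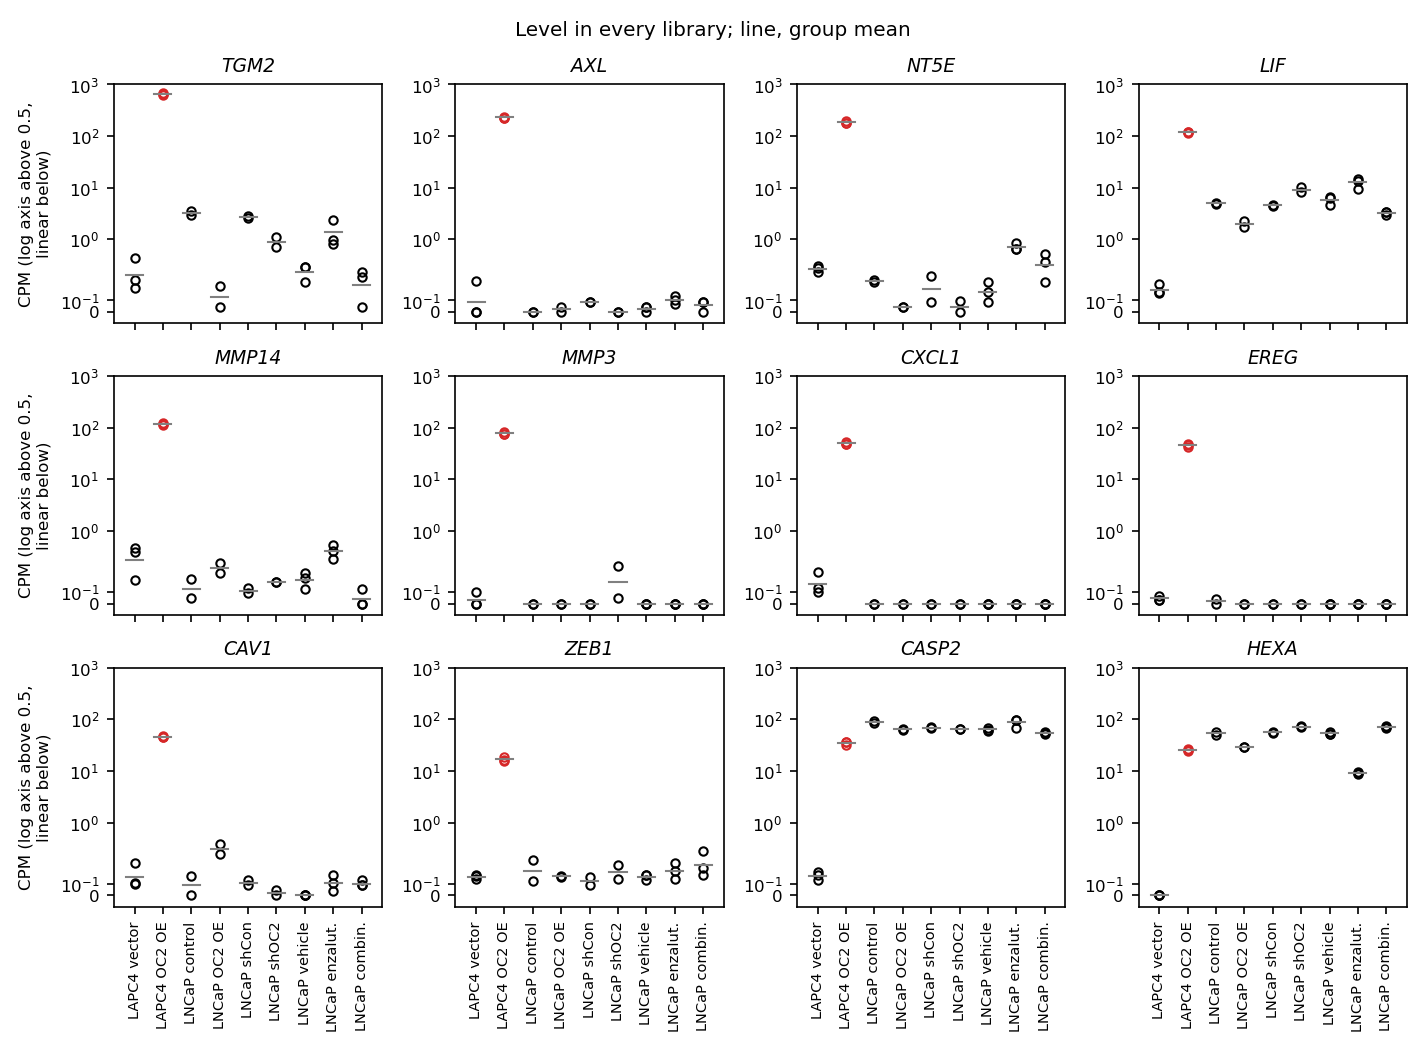
Level in every library (CPM, axis linear below 0.5 and logarithmic above) of 12 genes in 9 groups; circles are libraries, red for LAPC4 with OC2, and lines are group means. TGM2 reaches 619 to 675 CPM in LAPC4 with OC2, CXCL1 is at 0 in every LNCaP library, and CASP2 and HEXA are on in every LNCaP group.

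Several of the genes lie next to each other. Counting gaps of up to 500000 bases, 18 neighbouring pairs were found (coordinates from GENCODE 29, hg38). On chr4:73869393-74388751, from CXCL1 to EREG, 4 of 15 annotated genes belonged to the set. Between them PF4 and CXCL5 were at 0 in all 6 LAPC4 libraries, PPBP stayed at or under 0.137 CPM, and the folate enzyme gene MTHFD2L, named for its position, was on in both groups (8.04 and 12.6 CPM). On chr19:53909335-54102692, the calcium channel subunit genes CACNG7 and CACNG8 and the immune receptor genes VSTM1 and OSCAR belonged to the set, 4 of 8 genes there. CACNG7 went from 1 count in all to 72.7, 70.1 and 72.5 CPM, VSTM1 from no count to 6.17, 7.00 and 6.81 CPM, and CACNG6 between them stayed at or under 0.367 CPM. In both stretches genes of the set and genes silent in both groups lie between each other. FOXC2 and FOXL1 (chr16), MMP1 and MMP3 (chr11), CAV2 and CAV1 (chr7) and SERPINB7 and SERPINB2 (chr18) were further pairs.

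**Figure D3:**
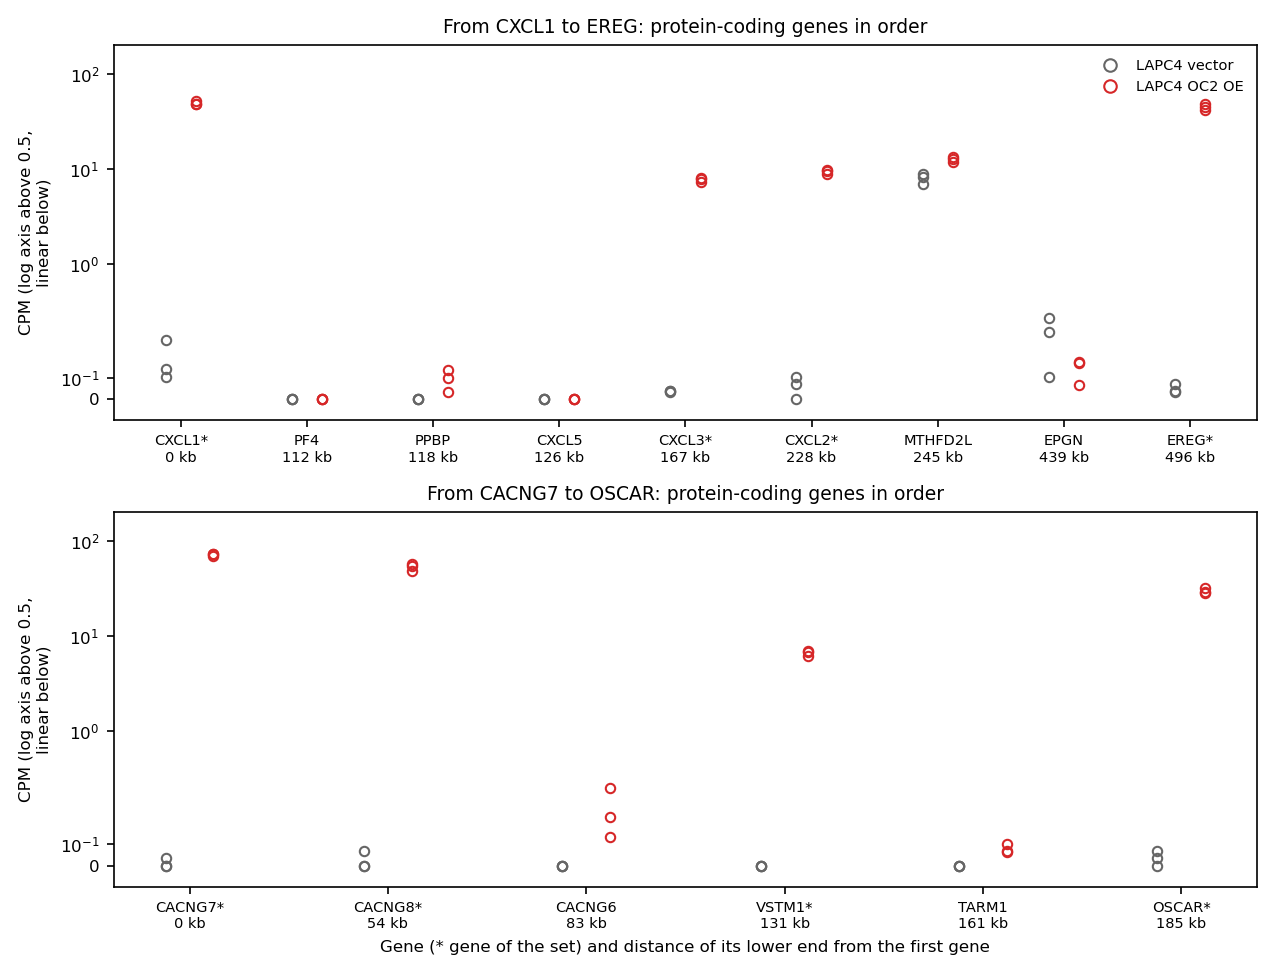
Protein-coding genes in genome order from CXCL1 to EREG (top) and from CACNG7 to OSCAR (bottom), with the distance of each from the first gene; circles are LAPC4 libraries (grey vector, red OC2, 3 each) in CPM, axis linear below 0.5 and logarithmic above. Starred genes are of the set and lie above 5 CPM in red, with PF4, PPBP, CXCL5, EPGN, CACNG6 and TARM1 near 0 between them.

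In LNCaP the 166 genes fell in 3 classes by their level in control cells, which were counted in a separate table, so levels are set side by side between the lines and not compared. Of the genes, 102 were under 0.5 CPM in both LNCaP control libraries, 34 were at 5 CPM or more in both, and 30 lay between. Of all 166, 84 were under 0.5 CPM in each of the 8 libraries of the LNCaP overexpression and knockdown table. Among them were CXCL1, EREG, MMP1, CAV1, ZEB1 and BNC1. Overexpression of OC2 in LNCaP gave a median ratio of mean CPM plus 0.5 of 1.00 over the 166 genes, with a highest possible value under 2 by the choice of genes. The added 0.5 holds the ratio near 1 for genes near 0 in both groups. For the 34 genes on in control the median was 0.888. The summed level of the 166 genes was 839 to 875 CPM in control and 697 to 699 CPM with OC2. TGM2, the gene with most reads in LAPC4, was at 3.55 and 2.92 CPM in LNCaP control and at 0.0447 and 0.224 CPM with OC2, the lowest ratio of the set at 0.170.

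Of the 34 genes that were on in LNCaP control, all but 1 were protein coding. They include LTBP2 and IFI35, described above. Those with the highest LNCaP level were CASP2, a cell death protease, HEXA, a lysosomal hexosaminidase chain, ZDHHC4, a palmitoyltransferase, ACOT2, a mitochondrial thioesterase, and PIK3CD, a PI3-kinase catalytic subunit best known in leukocytes. HEXA had no count in the 3 LAPC4 vector libraries and was at 24.6, 25.7 and 27.0 CPM with OC2 and at 57.0 and 50.6 CPM in LNCaP control. ZDHHC4 likewise had no count in vector, 16.8, 19.96 and 18.9 CPM with OC2 and 64.6 and 54.4 CPM in LNCaP control. CASP2 was at 0.175, 0.208 and 0.135 CPM in vector, 31.3, 35.9 and 36.3 CPM with OC2 and 93.7 and 85.4 CPM in LNCaP control. The same pattern held for AGPS, which makes ether lipids, at a mean of 0.0694, 65.2 and 27.3 CPM in the same order. In all, 6 of the 34 had no count in vector, and 16 of the 34 shared no exon base with another gene. A promoter of this class is shown because it also holds ATCGAT, which begins 229 bases before the start, in capitals here (chr7:143288101-143288350, plus strand, RefSeq GRCh38.p14).
CASP2: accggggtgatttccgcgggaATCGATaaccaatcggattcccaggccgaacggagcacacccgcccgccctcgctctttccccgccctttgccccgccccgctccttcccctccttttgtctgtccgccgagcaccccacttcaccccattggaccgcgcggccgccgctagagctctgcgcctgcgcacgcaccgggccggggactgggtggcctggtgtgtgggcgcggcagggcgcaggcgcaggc

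**Figure D4:**
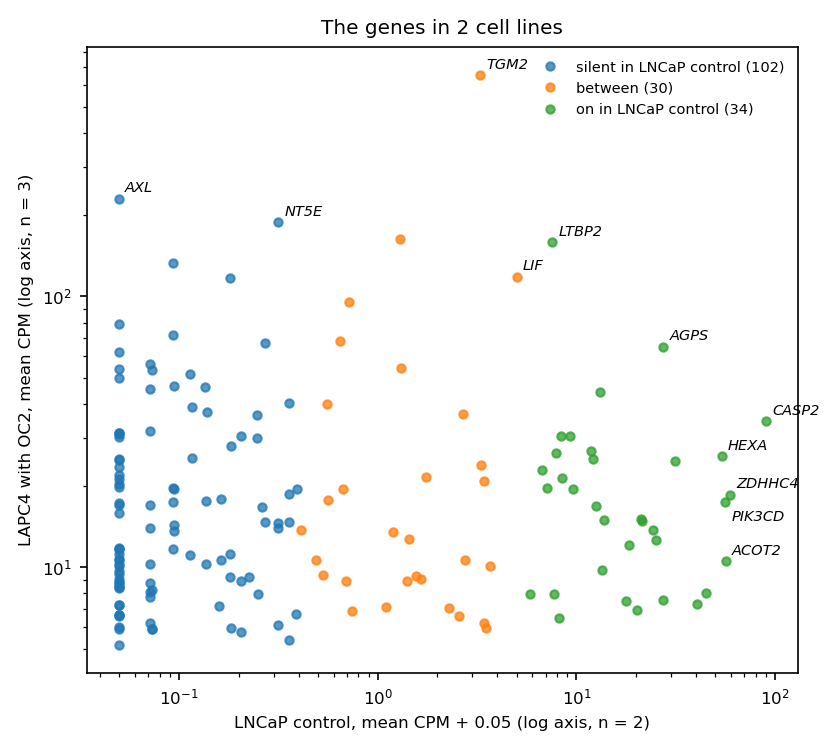
Mean level in LNCaP control (x, CPM + 0.05, n = 2) against mean level in LAPC4 with OC2 (y, CPM, n = 3) for the 166 genes on log axes, colored by class of LNCaP control level. AXL at 229 CPM sits at the left edge, CASP2 at 89.6 CPM in LNCaP at the right edge, and the classes overlap in LAPC4 level.

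The hairpin libraries were not used in the choice of genes. That choice did leave out the 44 genes that rose with OC2 in LNCaP, of which 4 were higher and 8 lower of 18 tested with shOC2. The comparison therefore cannot decide whether genes switched on by OC2 in LAPC4 depend on the OC2 of LNCaP. The tested genes of the set moved in both directions. Of the 166 genes, 69 passed the filter on low counts, and of these 28 were higher and 17 lower with shOC2 (edgeR adjusted p under 0.05), 65.2% of the tested genes. Over all 16585 genes tested, 54.1% were called, 27.3% higher and 26.8% lower, and the share among the 69 is read against that. The median log2 fold change was 0.17 for the 69 genes and 0.00 for all genes. The higher count was 17 without shOC2 replicate 1, 16 without shOC2 replicate 2 and 15 by DESeq2, where 15.1%, 16.4% and 17.3% of all genes were called higher. Of the 69 genes, 9 were under 0.5 CPM on average with shCon, where a gene can pass the filter through the shOC2 libraries alone; 6 of these were called higher and 0 lower.

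Genes lower with shOC2 included several with a high level in LAPC4. TGM2 was at 2.57 and 2.79 CPM with shCon and at 1.10 and 0.701 CPM with shOC2 (log2 fold change -1.52, SE 0.30, edgeR adjusted p = 0.00172). SYNE1 was at 2.04 and 1.99 CPM with shCon and 0.334 and 0.140 CPM with shOC2 (log2 fold change -3.01, SE 0.42, edgeR adjusted p = 0.000206). In both genes the groups did not overlap. ADAM12 (-3.72, SE 0.57), GALNT14 (-2.42, SE 0.23), a mucin-type glycosyltransferase, and RNF182 (-1.70, SE 0.33), a ubiquitin ligase, were the other steep falls on the log2 scale. LTBP2 fell less, from a mean of 12.5 to 6.75 CPM (log2 fold change -0.83, SE 0.12). ADAM12, GALNT14, TGM2 and LTBP2 were also lower with OC2 overexpression in LNCaP, GALNT14 for instance at 3.55 and 3.01 CPM in control and 0.224 and 0.269 CPM with OC2, values that the choice of genes used and that have no test.

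Genes higher with shOC2 were led by C9orf64, a queuosine salvage enzyme, at 0 and 0.0442 CPM with shCon, which is 1 count in all, and 16.4 and 16.3 CPM with shOC2 (edgeR adjusted p = 2.71e-08). C9orf64 was on in LNCaP control at 21.2 and 21.7 CPM, so shCon stood apart from the other untreated group. FCGRT, the neonatal Fc receptor, was at 0.443 and 0.796 CPM with shCon and 3.48 and 3.51 CPM with shOC2 (log2 fold change 2.54, SE 0.31, edgeR adjusted p = 8.25e-05). The purine and aldehyde oxidases XDH (2.25, SE 0.35) and AOX1 (2.34, SE 0.37) and the cyclin-like CCNJL (2.09, SE 0.44) followed on the log2 scale. Their means were 0.443, 0.310 and 0.243 CPM with shCon and 2.05, 1.53 and 1.01 CPM with shOC2. Like C9orf64, they were under 0.5 CPM on average with shCon and could pass the filter through the shOC2 libraries alone. LIF was at 4.38 and 4.69 CPM with shCon and 8.11 and 10.2 CPM with shOC2 (log2 fold change 1.07, SE 0.16, edgeR adjusted p = 0.000283). In these 6 genes every shOC2 library was above every shCon library. CASP2 (log2 fold change -0.04, SE 0.06, edgeR adjusted p = 0.620) and AGPS (0.03, SE 0.07, edgeR adjusted p = 0.763) did not pass. CCNJL lost its call by DESeq2 (adjusted p = 0.0606).

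The combination of enzalutamide and the OC2 inhibitor against vehicle was the second comparison that the choice of genes had not used. Of the 154 genes found in the drug table, 90 passed the filter, and 32 were higher and 6 lower (edgeR adjusted p under 0.05). Over all 17439 genes tested, 46.8% were called, 23.2% higher and 23.6% lower, beside 42.2% called of the 90, so the total share was near the background. The drug arms were filtered together, and 35 of the 90 genes were under 0.5 CPM on average with vehicle; of these, 9 were called higher and 1 lower with the combination. The median log2 fold change was 0.28 for the 90 genes and 0.01 for all genes. By class, 14 of 33 genes on in LNCaP control, 11 of 27 between and 7 of 30 silent ones were higher. The study gave no arm with the OC2 inhibitor alone.

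HSD17B14, a steroid dehydrogenase, was at 1.11, 1.10 and 1.19 CPM with vehicle and 6.91, 7.18 and 6.49 CPM with the combination (log2 fold change 2.52, SE 0.19, edgeR adjusted p = 8.34e-06). ROR2 was at 0.442, 0.527 and 0.220 CPM with vehicle and 4.16, 5.83 and 4.14 CPM with the combination (3.47, SE 0.43, edgeR adjusted p = 0.000159). SYNE1 was at 1.37, 1.05 and 1.01 CPM with vehicle and 6.17, 7.45 and 6.27 CPM with the combination (2.45, SE 0.28, edgeR adjusted p = 0.000105). For all 3 genes the groups lay far apart. The guanylate-binding protein GBP3 (2.11, SE 0.49) and FCGRT (1.99, SE 0.36) also rose on the log2 scale. Of the 6 genes that fell, LIF went from 6.63, 4.70 and 6.24 CPM to 3.33, 2.93 and 3.31 CPM (log2 fold change -0.96, SE 0.22, edgeR adjusted p = 0.00479). The amino acid transporter SLC36A4 (-0.93, SE 0.14), the glycosyltransferase B4GALT6 (-0.58, SE 0.17), the snoRNA host gene SNHG6 (-0.51, SE 0.10), ANKS6 (-0.39, SE 0.08), a cilium protein, and UGT2B7 (-1.35, SE 0.46) were the others. UGT2B7, the steepest, was the 1 gene of the 6 under 0.5 CPM on average with vehicle. Such a gene could pass the filter through another arm. B4GALT6 lost its call without combination replicate 3 (adjusted p = 0.0666), vehicle replicate 1 (0.0672) or vehicle replicate 2 (0.0574). TGM2 was at 0.265, 0.395 and 0.395 CPM with vehicle and 0.0438, 0.307 and 0.348 CPM with the combination and did not pass (edgeR adjusted p = 0.450).

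Knockdown and combination share no control library, and 66 of the genes were tested in both. Of these, 23 were called in both, 51.1% of the knockdown calls and 60.5% of the combination calls. Taken alone, the knockdown called 65.2% of its 69 tested genes and the combination 42.2% of its 90. The share of all genes called in both was not computed, so neither this overlap nor its directions are read as a result about the set. The direction was higher in both for 14 genes and lower in both for 2, ANKS6 and SLC36A4. It was opposite for 7, of which LIF rose with shOC2 and fell with the combination, and 6, SYNE1 and IL4R among them, fell with shOC2 and rose with the combination. For IL4R the log2 fold change was -0.64 (SE 0.13) in the knockdown.

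**Figure D5:**
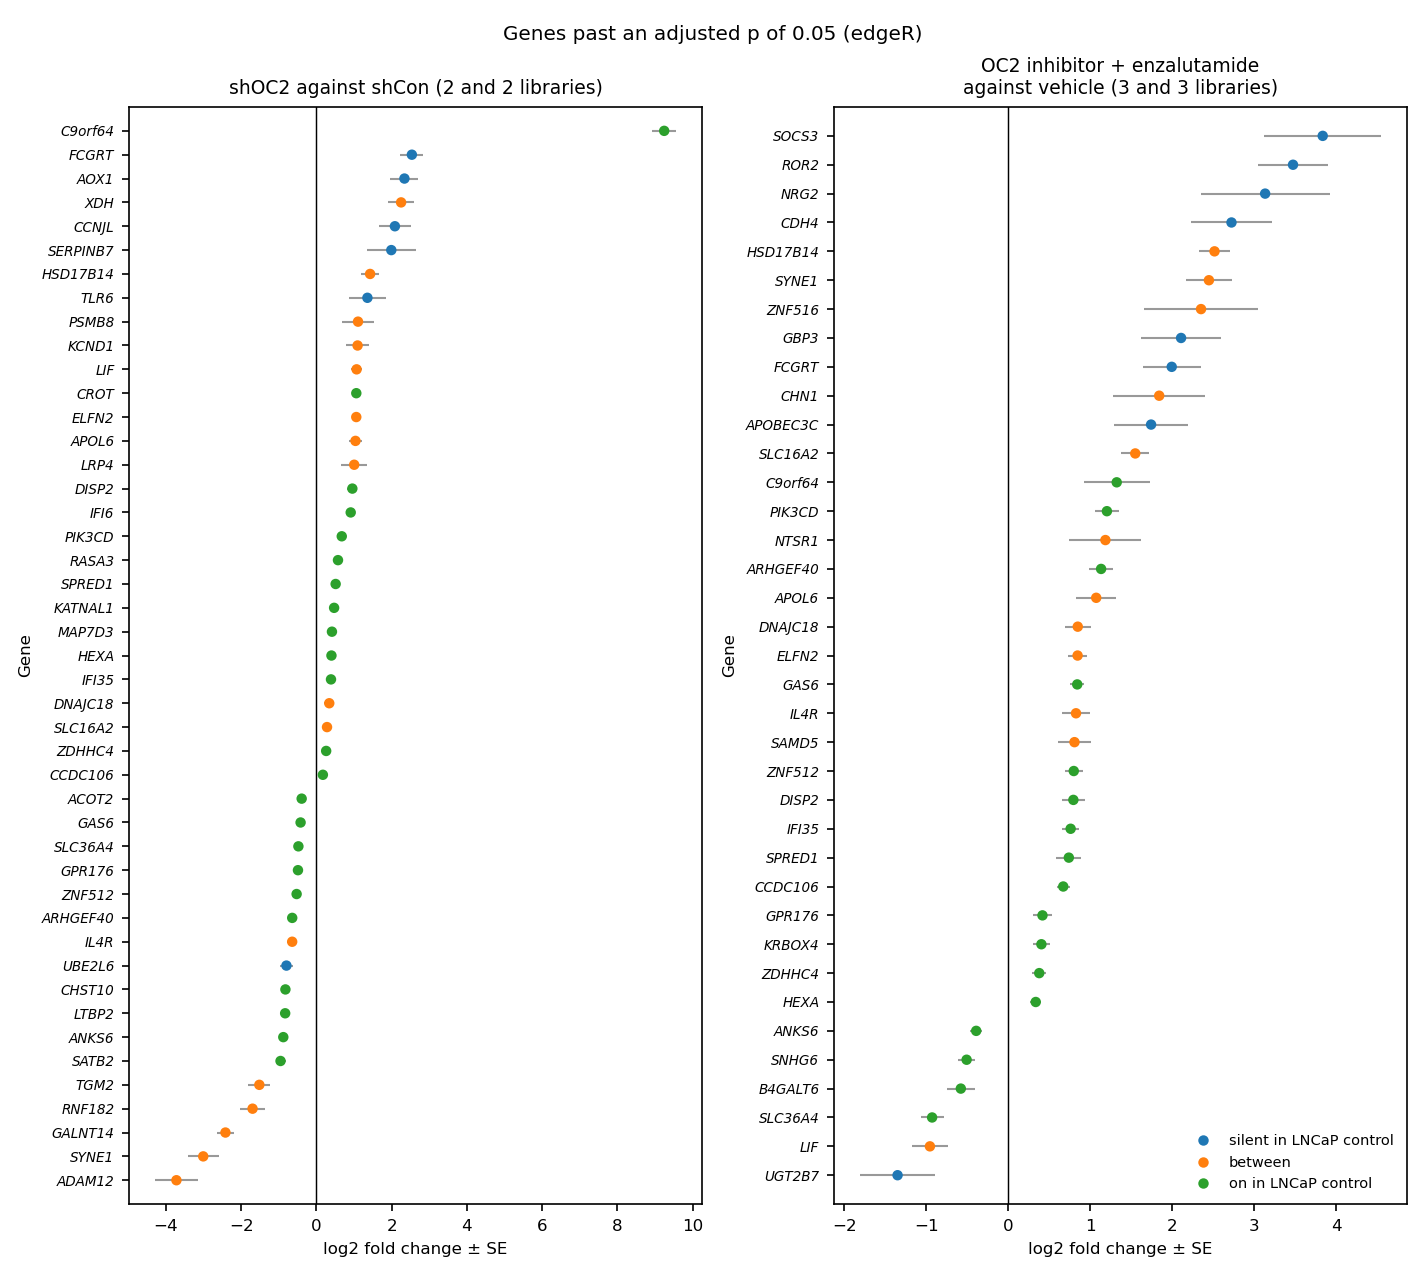
Log2 fold change ± SE (x) of the genes of the set past an edgeR adjusted p of 0.05 in the knockdown (left, 45 genes) and in the combination against vehicle (right, 38 genes, of which 1 is not drawn), colored by class of LNCaP control level. In the knockdown 28 genes lie right of 0 and 17 left, in the combination 32 and 6 with the gene that is not drawn, which was higher; the C9orf64 value rests on 1 count with shCon.

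Enzalutamide alone was counted in another step than the other arms of the drug table: its columns hold whole counts and theirs estimated counts. There, 201 symbols were at 0 in all enzalutamide columns and at 1 CPM or more in all 6 others, none of them in the set, so the drug and the counting step cannot be told apart in the next 2 comparisons. Against vehicle, 59 of the 90 genes were higher and 8 lower, beside 70.3% of all genes called (34.7% higher and 35.6% lower, edgeR). These counts are not a result about the set, because low genes could pass the filter through the arm in which they were high: 35 of the 90 were under 0.5 CPM on average with vehicle, 25 of them also with the combination, and 26 of the 35 were among the 59. For example IFI16 was at a mean of 0 CPM with vehicle and 0.663 CPM with enzalutamide. Among the 33 tested genes that were on in LNCaP control, 15 were higher and 7 lower, with a median log2 fold change of 0.24 beside 0.01 for all genes. Of 89 genes of the set under 0.5 CPM in every vehicle library, 9 reached 1 CPM in every enzalutamide library (10.1%), beside 1.41% of 38611 such genes in the table, and with the combination 0 of 89 did (0.236% of all). The 89 genes were chosen as on in LAPC4 with OC2, and the 38611 were not. These shares are therefore not a result about the set.

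BCAT1, a branched-chain amino acid transaminase, was at 0.133, 0 and 0 CPM with vehicle, 10.9, 24.4 and 26.9 CPM with enzalutamide and 0.0438, 0.0438 and 0 CPM with the combination. It was also on in LNCaP control (11.8 and 14.4 CPM) and at 0 in all 4 hairpin libraries, so the untreated LNCaP groups differed in this gene. PSMB8, an immunoproteasome subunit, was at 0.221, 0.439 and 0.303 CPM with vehicle and 4.73, 9.99 and 10.9 CPM with enzalutamide (log2 fold change 4.37, SE 0.48, edgeR adjusted p = 1.81e-05). TGM2 rose from a mean of 0.352 to 1.37 CPM (1.59, SE 0.55, edgeR adjusted p = 0.0243), far under its level in LAPC4 with OC2. HEXA went the other way, at 52.8, 52.3 and 56.2 CPM with vehicle, 9.56, 8.71 and 9.14 CPM with enzalutamide and 71.2, 75.03 and 69.1 CPM with the combination. For HEXA, 16.3% of exon bases overlap other genes, one of them on the same strand. The part of the counting step in these values was not tested.

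Combination against enzalutamide, which shares the enzalutamide libraries with the comparison above, gave 11 genes higher and 50 lower of 90, beside 61.9% of all genes called (31.4% higher and 30.4% lower, edgeR), and the same filter applies. Among the 33 genes on in LNCaP control, 10 were higher and 15 lower, with a median log2 fold change of -0.22 beside -0.02 for all genes. BCAT1, PSMB8 and AOX1 were among the steepest falls, at means of 20.7, 8.55 and 5.94 CPM with enzalutamide and 0.0292, 0.393 and 0.102 CPM with the combination. LIF fell from 9.34, 13.6 and 15.0 CPM to 3.33, 2.93 and 3.31 CPM (log2 fold change -1.73, SE 0.21, edgeR adjusted p = 5.69e-05). PIK3CD rose from 171, 114 and 107 CPM to 206, 206 and 189 CPM (0.88, SE 0.14, edgeR adjusted p = 0.000336). SYNE1 (0.08, SE 0.24, edgeR adjusted p = 0.793) and ROR2 (-0.45, SE 0.32, edgeR adjusted p = 0.248), both higher than vehicle in each drug arm, did not pass between the arms. HSD17B14 fell from 19.2, 12.9 and 12.8 CPM to 6.91, 7.18 and 6.49 CPM.

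Of the pathway lists, the ligands, receptors and proteases that hold these genes moved in both directions in LNCaP. In the knockdown, 5 of 15 tested cytokines and chemokines were higher and 4 lower, and 9 of 16 proteases and inhibitors were higher and 4 lower. Among 19 tested receptor tyrosine kinases, 9 were higher and 4 lower, and among 36 MHC class I and interferon-stimulated genes 17 were higher and 8 lower. With the combination against vehicle, 2 of 17 cytokines and chemokines were higher and 8 lower, 2 of 15 proteases and inhibitors were higher and 4 lower, 5 of 20 receptor tyrosine kinases were higher and 5 lower, and 11 of 41 MHC class I and interferon-stimulated genes were higher and 11 lower. The shares called over all genes in these comparisons are those given above.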

How the data were processed

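Members, gene lists and tests were chosen with earlier results of these data known. RNA sequencing of 23 libraries was used as 3 deposited tables. The LAPC4 file holds counts in whole numbers for each Ensembl gene, as deposited by the authors. For LNCaP overexpression and knockdown, and for the vehicle and combination arms, the authors deposited estimated counts, rounded here, and the enzalutamide columns are whole counts that could be matched to their group but to no single sample. FastQC 0.9.0, Bowtie2 and the hg38 build appear in the submitters' processing notes. Which counter made the tables, and with what strand setting, is not given in the sources used here.

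CPM were computed on the column total. Tests used edgeR 4.0.16 (R 4.3.3): TMM scaling, filterByExpr, the quasi-likelihood F-test and Benjamini-Hochberg adjustment over all genes tested, at a threshold of 0.05. The knockdown was fitted on its 4 libraries, and the 3 drug arms in one fit. Standard errors were derived from the F statistic. A gene at 0 in a group was set to a floor of 3 counts per library, and 1 to 3 counts got an exact 95% interval, which cover counting error alone because no molecular identifiers are in the tables. On simulated counts for the knockdown (16585 genes, 200 changed), the tests found 85% of the 2-fold and 98% of the 4-fold changes, with 5 false calls. For the combination (17439 genes) these were 75%, 97% and 10. The simulation gave every gene the same spread and changed 200 genes. In the data 54.1% of genes were called in the knockdown and 46.8% in the combination against vehicle, so these rates need not hold there.

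Named genes were ONECUT2; the 20 members with most reads in LAPC4 with OC2; up to 5 members of each list; up to 5 called members per direction and comparison whose higher group averages 1 CPM or more; the 5 with the highest level in LNCaP control; 2 genes on each side of each threshold; and up to 4 non-members of a list. Alternatives were other thresholds, scalings, no filter, DESeq2 1.42.0, the replicate block and leaving out each library. Coordinates and overlaps are from GENCODE 29 and promoters from RefSeq; 52 members had no promoter window in the table. Tables were normalized separately and tested within a table only.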

Additional observations from a re-analysis of the deposited data

Results flagged for a closer look

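Every LAPC4 library with OC2 was above every vector library by the choice of genes, and 14 of the 166 genes had a LNCaP ratio of 0.5 or less with both LNCaP libraries with OC2 below both controls. Of the 166 genes, 50 had both LNCaP libraries with OC2 above both controls, 40 had both below, and 76 overlapped or tied. The ratio was 1.5 or more for 11 genes. The choice of genes removed the largest rises in LNCaP and no falls, so the 14 genes are not read as an opposite response in LNCaP. The share of all genes with such a fall is not given here. The difference between the lines was not tested, and the choice of genes used both contrasts. The ratio of mean CPM plus 0.5, LNCaP with OC2 to LNCaP control, was 0.17 for TGM2, 0.172 for PSMB8, 0.197 for GALNT14, 0.217 for APOL6, an apolipoprotein L family member, and 0.31 for KATNAL1. It was 0.318 for CRACR2A, 0.342 for RASA3, 0.371 for ADAM12, 0.384 for BCAT1 and 0.415 for MSANTD4. It was 0.425 for MAP7D3, 0.452 for XDH, 0.456 for LIF and 0.489 for LTBP2. Of these genes, TGM2, LIF and LTBP2 were among the 8 with a mean of at least 100 CPM in LAPC4 with OC2.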

How the results depend on the processing

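The number of genes that met the rule was 166 with TMM-scaled library sizes as well, and 103 where the on limit was 10 CPM. Other limits gave 124 to 249 genes, and leaving out 1 LAPC4 library gave 168 to 179. The count of genes higher in the knockdown was 28, and 15 by DESeq2 (lower: 17 and 14). Leaving out 1 library gave 16 to 25 higher and 12 to 18 lower. The correlation of same-numbered deviations was -0.05 in the knockdown and 0.02, 0.11 and 0.06 for vehicle and combination. It does not settle whether the replicate numbers pair the samples. With 2 libraries per hairpin arm all correlations have the same size by construction, and the value of 0.11 is above the limit of 0.1 set for pairing. With the replicate block, 26 genes were higher and 17 lower in the knockdown, and 32 and 7 with the combination against vehicle. No value reversed its direction in the alternatives run. Of the values of named genes, 382 kept direction and side of the threshold and 8 lost the call, 1 of CCNJL, 3 of B4GALT6 and the others of a gene not reported here. The fit that leaves 1 library in a hairpin arm takes its spread from the other arm. Genes at 3 counts or fewer in a group have no resolved level there, and no depth limit was tested for the enzalutamide columns, whose numbering could not be tied to samples.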

Other observations

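Of the 18 non-coding genes of the set, 14 were under 0.5 CPM in every library of the LNCaP overexpression and knockdown table. Of the 192 promoter windows of the set, 54.2% had an observed-to-expected CpG ratio above 0.6 with over 50% GC, beside 46.8% of all windows. The median GC content was 62.0% and 58.7%. By class of LNCaP control level, the share was 50.4% for silent genes, 54.8% for those between and 63.6% for genes on. All windows include those of genes that are not on in these cells, and the difference was not tested. The 44 genes left out for their rise in LNCaP gave 4 higher and 8 lower of 18 tested in the knockdown (edgeR adjusted p under 0.05, beside 27.3% higher and 26.8% lower of all genes).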
